A study of Mus musculus with 17 samples.

Results

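The amino acid transporter genes of mouse stem cell lines were examined here. They are the genes whose symbols put them in the solute carrier (SLC) families SLC1, SLC3, SLC7, SLC36, SLC38 and SLC43, 42 genes of the 23891 gene symbols in the expression tables, with 65 RefSeq transcripts between them. Each gene was followed through 1 transcript, the one with the highest mean expression over all 17 samples. The families contributed 7 (SLC1), 2 (SLC3), 15 (SLC7), 4 (SLC36), 11 (SLC38) and 3 (SLC43) genes.

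RNA-seq had been made from 6 kinds of cultured mouse cells. The 4 spermatogonial stem cell (SSC) lines, germline stem cells from the testes of mice over 3 months old, were of the strains Oct4-GFP (SSC.1 and SSC.2), C57Bl/6J (SSC.3) and 129mix (SSC.4). The 6 multipotent adult spermatogonial-derived stem cell (MASC) lines, pluripotent lines that had arisen from SSC cultures, were Oct4-GFP (MASC.1 and MASC.2), 129mix (MASC.3 and MASC.4) and Gt(ROSA26)Sor-lacZ (MASC.5 and MASC.6), and the 2 embryonic stem cell (ESC) lines were Oct4-GFP (ESC.1) and 129mix (ESC.2). Both induced pluripotent stem (iPS) cell lines were 129mix and came from embryonic day 13.5 fibroblasts carrying tetO-4F2A, a doxycycline-inducible cassette of reprogramming factors, and H3.3B-HA. The 2 haematopoietic stem and progenitor cell (HSC) cultures were C57Bl/6J bone marrow cells depleted of lineage-positive cells. They were grown in X-Vivo serum-free medium with soluble Kit ligand on E4ORF1-HUVECs, a human endothelial feeder. The 1 mouse embryonic fibroblast (MEF) sample came from 129mix embryos of day 13.5 with H3.3B-HA. MASC and iPS lines had been picked as single colonies by their morphology.

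SSC lines had been grown on MEF feeders in a StemPro-34 based medium with GDNF, bFGF and EGF, and had been separated from feeder cells by plating on gelatin before collection. MASC, ESC and iPS lines had been grown with MEFs in ESC medium with LIF. Cell type and medium therefore cannot be told apart in any comparison of SSC lines with the pluripotent lines. Both recipes list glutamine, nonessential amino acids and β-mercaptoethanol. Nothing in the labels says whether lines of 1 strain came from separate animals, so p-values measure the spread between these lines.

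Values are FPKM, mapped fragments scaled to the length of the transcript and to the depth of the library, a level per length that allows genes to be compared with each other. Differences between cell types are given on the log2(FPKM + 1) scale with their standard error (SE), and a gene passed the test where the limma p-value, adjusted over all 32661 transcripts by the Benjamini-Hochberg method, was under 0.05. A fold given beside a difference is of FPKM + 1. This scale understates the change of genes with low FPKM. At 1 FPKM the coverage of a transcript was between 1.26 and 3.23 reads per base, so values far under 1 FPKM rest on few reads.

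Markers of each cell type were read first. Summed over 8 pluripotency genes, FPKM was 2831 to 6232 in MASC, ESC and iPS lines and 12.8 to 155.5 in SSC lines, and the highest of the SSC lines, SSC.1, held 94.5 FPKM of Pou5f1. Summed over 12 fibroblast genes, FPKM was 1055 in SSC.3, 476 in SSC.1, 1252 in MASC.1, 468 in ESC.1 and 535 in HSC.2, against 1.52 to 164 in the other lines and cultures and 7283 in the MEF sample. The HSC cultures expressed 8 blood progenitor genes at a sum of 955 to 1286 FPKM, but 7 mast cell genes at a sum of 38440 to 63050 FPKM. Values labelled HSC are therefore values of these cultures, in which mast cell genes were by far the higher of the 2 sets. Summed over 5 macrophage genes, FPKM was 3795 in the MEF sample, 268 and 281 in the HSC cultures, 234 in SSC.2, 49.9 to 115 in MASC.3 to MASC.6 and ESC.2, and 3.92 to 27.1 in the other lines. The mast cell genes summed to 26.8 to 46.9 FPKM in SSC.3, MASC.2 and ESC.1. The part of these libraries in the results was examined by leaving out 1 library at a time. Those highest in fibroblast genes, SSC.1, SSC.3, MASC.1, ESC.1 and HSC.2, were also left out together. This left SSC.2 and SSC.4 as SSC lines, and ESC.2 and HSC.1 alone in their groups. In bulk RNA, fewer cells that express a gene and less RNA per cell cannot be told apart.

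Amino acids cross membranes through carriers that differ in what they take and in how they are driven. Members of SLC1 use the sodium gradient to take up glutamate and aspartate or exchange small neutral amino acids, and members of SLC38 take up glutamine, alanine and other small amino acids with sodium. SLC7 holds carriers of lysine, arginine and ornithine that work alone, and light chains that reach the cell surface only when joined to a heavy chain of SLC3. SLC36 and some SLC38 members work in lysosomes, where they hand amino acids to the cytosol or report them to the kinase mTORC1. In mouse ESCs, amino acid supply is known to bear on self-renewal, and several of these carriers are textbook targets of the transcription factor ATF4, which is made when amino acids run short.

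Of the 42 genes, 13 stayed under 1 FPKM in all 17 samples, among them Slc7a12, which was listed at 0 throughout, and 12 reached 1 FPKM or more in all 17. The summed FPKM of all members was 406.7 to 607 in SSC lines, 608 to 685 in MASC lines, 572 to 854 in ESC lines, 507 to 510.3 in iPS lines, 617 to 771 in HSC cultures and 459 in the MEF sample. A handful of genes made up most of it. In SSC lines the 5 most abundant members, Slc7a5, Slc3a2, Slc38a2, Slc38a4 and Slc7a6, held 76.1% of the sum, with Slc7a5 alone at 34.7%. In MASC lines the leading 5 were Slc38a2, Slc3a2, Slc7a5, Slc7a3 and Slc38a4, with 70.2% of the sum, and Slc38a2 stood at 16.7%, Slc3a2 at 16.3% and Slc7a5 at 15.8%. Slc7a3 held 14.5% in MASC lines and was not among the leading 5 in SSC lines.

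**Figure D1:**
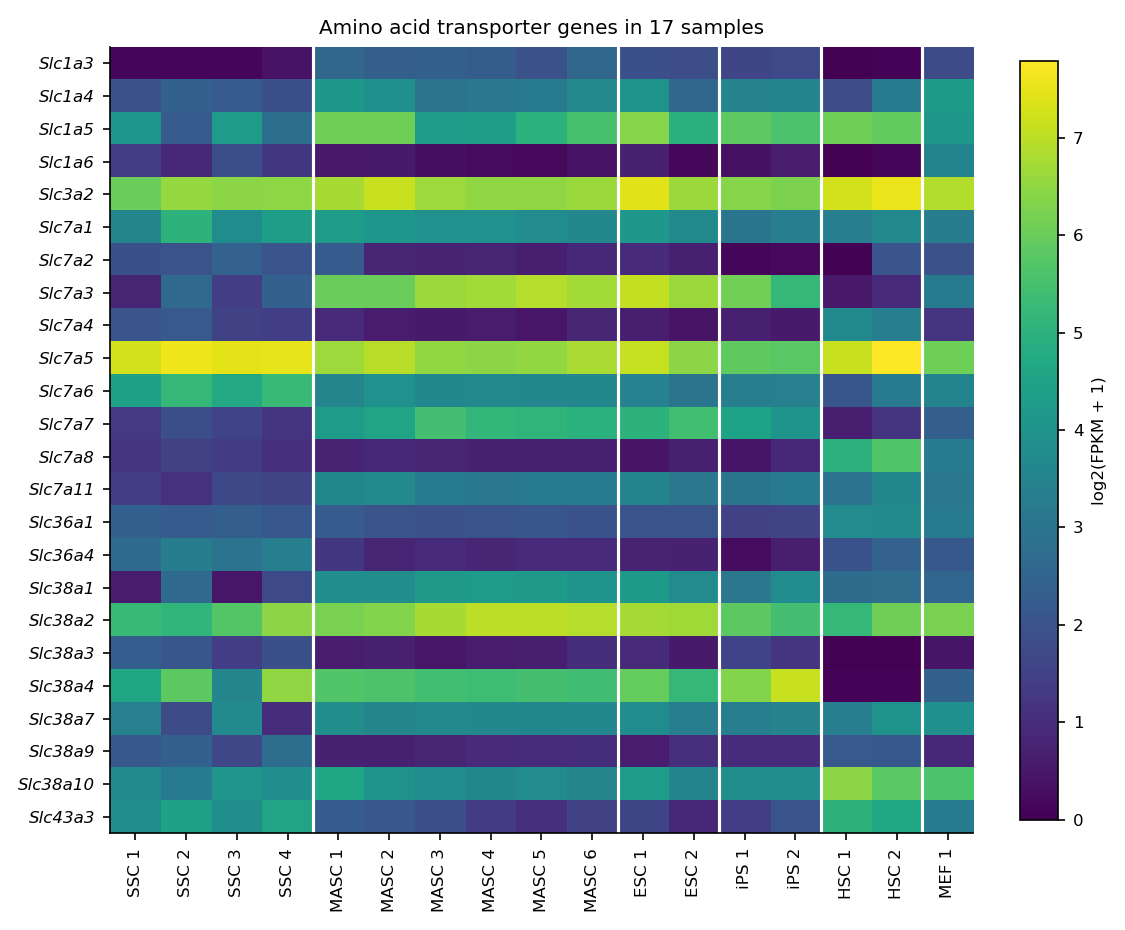
Heat map of log2(FPKM + 1) of the 24 members with a mean of at least 10 FPKM in 1 cell type or an adjusted p under 0.05 with a log2 difference of at least 1 (rows) in the 17 samples (columns, grouped by cell type between white lines). Slc7a3 and Slc7a7 are bright in all MASC, ESC and iPS columns and dark in SSC and HSC columns, and Slc7a8 is bright in the 2 HSC columns.

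The comparison of MASC with SSC lines asks how pluripotent lines that arose from SSC cultures differ from SSC lines. No SSC line here had the Gt(ROSA26)Sor-lacZ strain of MASC.5 and MASC.6, so the SSC lines are not the parents of all MASC lines. Between them, 8 members were higher in MASC lines (19.0% of the 42, where 11.4% of all transcripts were) and 12 were lower (28.6%, where 19.5% of all transcripts were). Among transcripts with a mean of at least 1 FPKM the shares were 8 of 28 members higher (28.6%, background 18.5%) and 11 of 28 lower (39.3%, background 26.5%). The median size of the difference in these members was 1.09 on the log2 scale beside 0.64 over all such transcripts. Each member is the transcript of its gene with the highest mean, while the backgrounds hold every transcript of a gene, so the sets compared were not chosen alike. The genes that were higher were Slc7a3, Slc7a7, Slc38a1, Slc1a3, Slc7a11, Slc1a5, Slc1a4 and Slc38a2. Those that were lower were Slc43a3, Slc36a4, Slc38a9, Slc38a3, Slc7a6, Slc7a4, Slc7a2, Slc1a6, Slc7a5, Slc7a8, Slc36a1 and Slc36a3. In 7 members every MASC line stood above every SSC line (9.92% of all transcripts did) and in 9 every MASC line stood below (15.4% of all transcripts did). Scaling matters for the background: the median difference of all 17140 transcripts with a mean of at least 1 FPKM was -0.10 as deposited, 0.01 after quantile normalization and 0.03 after scaling each sample to its median, and the share of all called transcripts that were higher went from 37.0% to 45.8% and 46.9%. Centring the log2 values on the median of each sample, which also shifts values listed at 0, moved the median difference to 0.08 and that share to 73.9%, and 16 members were then called higher (43.6% of all transcripts were). With quantile normalization 17 of the 20 members called still passed, and with median scaling 19. The direction held in all of these but Slc36a1, which changed sign under quantile normalization (0.05, adjusted p = 0.723). With a difference of at least 1 asked for as well, 8 members were higher (background 6.04%) and 7 lower (9.60%). By an unadjusted p under 0.05 with a difference of at least 2, a rule adapted from the study's methods, whose wording can also be read as a 2-fold change, 4 were higher (1.81% of all transcripts were) and 2 lower (2.21%).

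**Figure D2:**
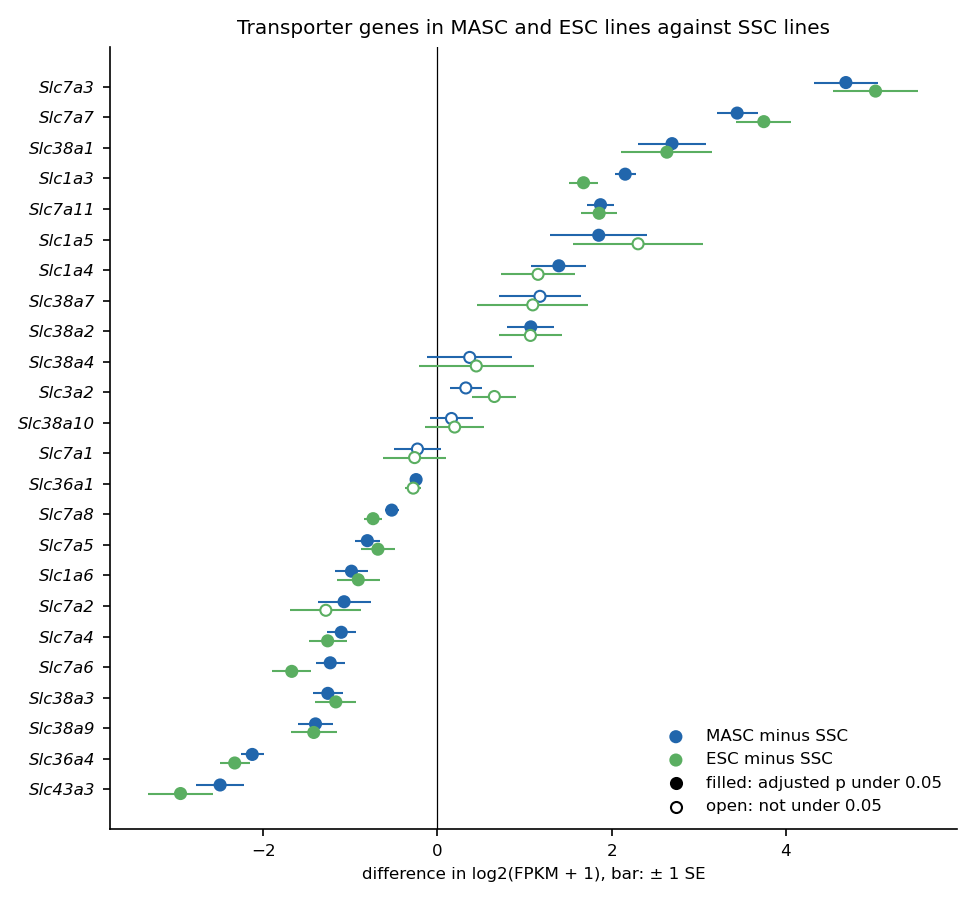
Difference in log2(FPKM + 1) from the SSC lines for the 24 members (rows), for MASC lines in blue and ESC lines in green, with bars of 1 SE and filled points where the adjusted p was under 0.05. Slc7a3 lies farthest to the right (4.69 in MASC and 5.03 in ESC lines) and Slc43a3 farthest to the left (-2.50 and -2.95).

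Of the 3 cationic amino acid carriers, which take up lysine, arginine and ornithine, Slc7a3 was higher in MASC lines, Slc7a2 was lower and Slc7a1 did not pass. Slc7a3 (chrX:98274560-98280691, mm9) stood at 0.737, 5.31, 1.67 and 4.22 FPKM in the 4 SSC lines, at 63.7 to 121 (median 100.5) in the 6 MASC lines, at 134 and 96.4 in the ESC lines and at 69.4 and 35.5 in the iPS lines. Every pluripotent line lay above every SSC line, the lowest of them the iPS line at 35.5. The difference between MASC and SSC lines was 4.69 ± 0.37 (SE, adjusted p = 1.39e-05), a 25.8-fold difference in FPKM + 1, and it was larger than in any other member. HSC cultures held 0.451 and 0.923 FPKM and the MEF sample 8.08.

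Slc7a1 (chr5:149138986-149211480), the widely expressed carrier of the same substrates, stood at 10.8, 31.99, 12.7 and 19.3 FPKM in SSC lines and at 11.5 to 18.8 (median 14.3) in MASC lines. The 2 ranges overlapped and the difference was -0.23 ± 0.27 (SE, adjusted p = 0.608). This value rested on single lines: without SSC.2 it was 0.06, and without the lines highest in fibroblast genes it was -0.81 with an adjusted p of 0.0445. Slc7a2, the inducible member of the trio, stood at 2.75, 2.95, 4.50 and 3.16 FPKM in SSC lines and at 0.564 to 3.83 (median 0.776) in MASC lines, a difference of -1.07 ± 0.30 (SE, adjusted p = 0.0229). Only MASC.1, the MASC line with the highest sum of fibroblast genes, reached the SSC range for Slc7a2, and the MEF sample held 2.85 FPKM. Without the libraries highest in fibroblast genes the difference was -1.24 (adjusted p = 0.00028), while without SSC.3 alone it was -0.95 and the call was lost (adjusted p = 0.0668). The call was also lost with a strain block (-0.75, adjusted p = 0.181), under quantile normalization (-0.82, adjusted p = 0.0574) and with summed transcripts (-1.03, adjusted p = 0.0671), and within Oct4-GFP lines the difference was -0.39, with no test.

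As a share of the summed FPKM of the 3 genes, Slc7a1 made up 67.3 to 79.5% in SSC lines and 9.41 to 21.7% in MASC lines, while Slc7a3 made up 5.17 to 15.8% in SSC lines and 73.8 to 90.2% in MASC lines. ESC lines (88.4 and 88.5% Slc7a3) and iPS lines (79.5 and 90.6%) lay with the MASC lines. HSC cultures lay with the SSC lines, at 73.9 and 94.9% Slc7a1. The sum of the trio was 14.3 to 40.2 FPKM in SSC lines and 81.1 to 135 in MASC lines, so the pluripotent lines held more of these transcripts in all and most of them were Slc7a3.

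**Figure D3:**
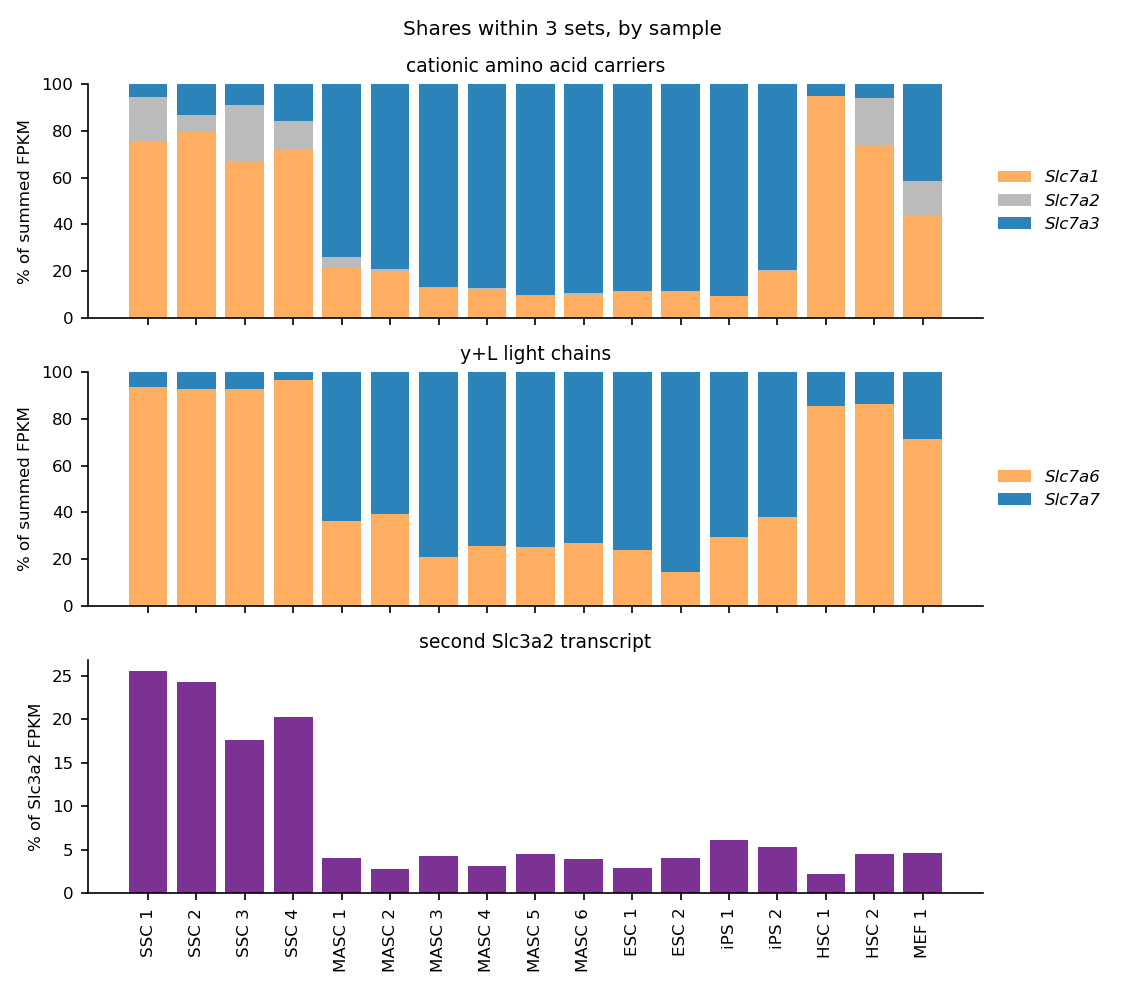
Share of the summed FPKM in each of the 17 samples, for Slc7a1, Slc7a2 and Slc7a3 (top), for Slc7a6 and Slc7a7 (middle), and for the second transcript of Slc3a2 among its transcripts (bottom). Slc7a3 and Slc7a7 hold at least 60.7% in every MASC, ESC and iPS sample and at most 15.8% in every SSC sample, and the second Slc3a2 transcript holds 17.6 to 25.5% in SSC samples and 2.24 to 6.09% in the others.

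MASC lines held higher levels of 2 of the 6 light chains that join Slc3a2 and lower levels of 3, where 11.4% of all transcripts were higher and 19.5% lower. The first pair, Slc7a6 and Slc7a7, are the y+L exchangers, which release cationic amino acids from cells in exchange for neutral ones and sodium. Slc7a7 (chr14:54989126-55036516) stood at 1.43, 2.67, 1.99 and 1.30 FPKM in SSC lines, at 18.7 to 43.04 (median 32.04) in MASC lines, at 31.8 and 41.96 in ESC lines and at 21.9 and 15.4 in iPS lines. No pluripotent line overlapped the SSC lines, and the difference between MASC and SSC lines was 3.44 ± 0.23 (SE, adjusted p = 5.99e-06). Slc7a6 (chr8:108692775-108722604) went the other way, with 20.9, 35.4, 25.1 and 36.9 FPKM in SSC lines, 10.6 to 14.5 (median 11.2) in MASC lines, 9.93 and 6.97 in ESC lines and 9.05 and 9.48 in iPS lines, a difference of -1.23 ± 0.17 (SE, adjusted p = 0.00043) for MASC lines. Of the summed FPKM of the pair, Slc7a6 made up 92.7 to 96.6% in SSC lines, 20.6 to 39.3% in MASC lines, 14.2 and 23.8% in ESC lines and 29.2 and 38.1% in iPS lines.

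A second Slc7a7 transcript passed as well. NM_011405 was 20.1 to 35.5% of Slc7a7 FPKM in MASC lines and differed by 2.27 ± 0.14 (SE, adjusted p = 2.7e-06) between MASC and SSC lines, beside the 3.44 of the transcript followed here, NM_001253679. A further transcript, NM_001253680, passed with a smaller difference of 0.94 ± 0.31 (SE, adjusted p = 0.046), at 0.395 to 3.06 FPKM in MASC lines. The split of reads between these transcripts was made by Cufflinks.

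Slc7a11 (chr3:50168858-50247535) encodes xCT, the light chain that imports cystine in exchange for glutamate and so feeds glutathione synthesis. It stood at 1.74, 1.17, 2.20 and 2.02 FPKM in SSC lines, at 7.66 to 11.98 (median 8.29) in MASC lines, at 10.4 and 7.74 in ESC lines, at 7.23 and 8.35 in iPS lines, at 6.84 and 10.9 in HSC cultures and at 7.71 in the MEF sample. The 4 SSC lines lay below all 13 other samples. The difference between MASC and SSC lines was 1.87 ± 0.15 (SE, adjusted p = 1.77e-05).

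Sequence upstream of the start sites is shown for 4 members, because Slc7a11 is a known target of ATF4 and the C/EBP-ATF element through which that factor acts can be searched by its letters. The letters TGATGNAA were sought on both strands in the RefSeq windows of mouse promoters, which run from 250 bases before to 50 after a start site. Of the 31 members with such a window, 3 held the letters (9.68%), beside 4.51% of 27025 genes. The 3 were Slc7a11, Slc1a4 and Slc7a7, all of which are among the members given above as higher in MASC lines, and no test of this was made. Of the other members higher in MASC lines, Slc1a3 and Slc38a2 had windows without the letters, and Slc7a3, Slc1a5 and Slc38a1 had no window to search. The letters TGACNNNGC of the antioxidant response element were in 5 of the 31 (16.1%), beside 3781 of the 27025 genes, and Slc7a6 is printed from these as the partner of Slc7a7. The 260 bases of each printed stretch end 10 bases after the start, and the capitals mark the searched letters on either strand (GRCm38.p6 coordinates).
Slc7a11, chr3:50443604-50443863, minus strand: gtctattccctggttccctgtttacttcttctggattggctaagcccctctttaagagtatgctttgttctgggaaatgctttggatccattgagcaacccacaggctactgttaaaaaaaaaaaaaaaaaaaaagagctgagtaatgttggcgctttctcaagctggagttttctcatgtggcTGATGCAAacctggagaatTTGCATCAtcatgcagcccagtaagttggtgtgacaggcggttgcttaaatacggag
Slc1a4, chr11:20332704-20332963, minus strand: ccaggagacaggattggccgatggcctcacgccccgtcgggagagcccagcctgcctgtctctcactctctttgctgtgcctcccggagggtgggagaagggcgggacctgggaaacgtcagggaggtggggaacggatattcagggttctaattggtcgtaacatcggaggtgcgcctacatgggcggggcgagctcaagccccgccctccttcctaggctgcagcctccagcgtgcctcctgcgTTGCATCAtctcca
Slc7a7, chr14:54417693-54417952, minus strand: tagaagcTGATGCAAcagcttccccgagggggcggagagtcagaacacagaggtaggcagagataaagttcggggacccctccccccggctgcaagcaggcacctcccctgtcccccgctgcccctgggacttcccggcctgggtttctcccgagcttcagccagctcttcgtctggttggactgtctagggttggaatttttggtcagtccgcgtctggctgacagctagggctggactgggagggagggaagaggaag
Slc7a6, chr8:106168604-106168863, plus strand: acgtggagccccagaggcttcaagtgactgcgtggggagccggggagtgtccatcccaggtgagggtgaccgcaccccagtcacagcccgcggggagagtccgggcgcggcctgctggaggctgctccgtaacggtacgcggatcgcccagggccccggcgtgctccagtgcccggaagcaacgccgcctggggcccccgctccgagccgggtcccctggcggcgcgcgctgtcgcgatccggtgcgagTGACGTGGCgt

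In the Slc7a11 stretch the letters occurred in 2 copies that face each other, 66 and 47 bases before the start. Slc1a4 had 1 copy on the opposite strand, 4 bases before the start. Slc7a7 has 5 windows in the table, of which 2 held the letters, and the window of the start of the transcript followed here did not. These matches describe the letters in these windows and say nothing about binding.

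Slc7a5 (chr8:124405046-124431586) encodes LAT1, the light chain that brings in leucine and other large neutral amino acids, and it was the most abundant member in SSC lines at 151, 194, 175 and 182 FPKM. MASC lines held 85.3 to 124 (median 96.1), ESC lines 137 and 86.2, iPS lines 57.9 and 54.4 and HSC cultures 139 and 221. Every SSC line stood above every MASC line, and the difference was -0.81 ± 0.15 (SE, adjusted p = 0.00222). Slc7a8, the LAT2 light chain with a wider range of neutral substrates, was low in both, at 1.32, 1.83, 1.54 and 1.12 FPKM in SSC lines and 0.617 to 0.821 (median 0.679) in MASC lines, a difference of -0.53 ± 0.08 (SE, adjusted p = 0.000824). Slc7a10, the light chain for small neutral amino acids such as D-serine, stayed under 0.21 FPKM in all samples.

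The transcript followed for the heavy chain did not pass. Slc3a2 (chr19:8781372-8788387), also called 4F2hc or CD98, stood at 64.2, 93.4, 85.5 and 86.8 FPKM in SSC lines, 88.8 to 141 (median 98.2) in MASC lines and 171 and 97.1 in ESC lines, a difference of 0.33 ± 0.19 (SE, adjusted p = 0.236) between MASC and SSC lines. The other heavy chain gene, Slc3a1, and its light chain Slc7a9, which together take up cystine in kidney and gut, stayed under 1 FPKM in all samples. The light chains of Slc3a2 summed to 177 to 235 FPKM in SSC lines, above Slc3a2 itself in each line, and to 139.7 to 173 in MASC lines.

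A second Slc3a2 transcript did differ. NM_001161413, whose 5′ end lies upstream of the first at position 8797859 of chr19 on the minus strand, stood at 22.01, 29.9, 18.3 and 22.1 FPKM in SSC lines and 2.88 to 4.55 in MASC lines. It made up 17.6 to 25.5% of Slc3a2 FPKM in SSC lines, 2.74 to 4.51% in MASC lines, 2.93 to 4.02% in ESC lines, 5.28 to 6.09% in iPS lines and 2.24 to 4.47% in HSC cultures. The difference between MASC and SSC lines was -2.26 ± 0.14 (SE, adjusted p = 3.53e-06) and between ESC and SSC lines -2.08 ± 0.19 (SE, adjusted p = 7.31e-05).

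The small neutral amino acid exchangers Slc1a4 (ASCT1) and Slc1a5 (ASCT2, a glutamine carrier of dividing cells) were both higher in MASC lines. Slc1a4 (chr11:20202183-20232716) stood at 2.79, 4.23, 3.71 and 2.73 FPKM in SSC lines and 6.94 to 16.8 (median 10) in MASC lines, without overlap, a difference of 1.39 ± 0.32 (SE, adjusted p = 0.00785). Slc1a5 (chr7:17366695-17383623) stood at 15.9, 3.84, 18.5 and 5.98 FPKM in SSC lines and 18.8 to 66.7 (median 37.5) in MASC lines, a difference of 1.85 ± 0.56 (SE, adjusted p = 0.0302). The ranges of Slc1a5 came close, with 18.5 in SSC.3 just under the 18.8 of MASC.3, and its call was lost without SSC.2, SSC.4, MASC.1, MASC.2 or MASC.6 (adjusted p from 0.0563 to 0.0835, difference from 1.49 to 1.79). The higher SSC values of Slc1a5, 15.9 and 18.5, were those of SSC.1 and SSC.3, which are among the libraries highest in fibroblast genes. Without those libraries the difference of Slc1a5 was 2.50 (limma adjusted p = 0.025), with SSC.2 and SSC.4 as the SSC lines. The part of feeder cells was not tested beyond that.

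Within a cell type the lines were spread in both genes. Slc1a5 was 66.7 and 65.8 FPKM in the Oct4-GFP lines MASC.1 and MASC.2, 18.8 and 19.5 in the 129mix lines MASC.3 and MASC.4, and 30.2 and 44.9 in the Gt(ROSA26)Sor-lacZ lines. The Oct4-GFP line ESC.1 held 82.9 and the 129mix line ESC.2 held 29.7, but both 129mix iPS lines held more, 57.4 and 47.3. For Slc1a4 the same lines read 16.8 and 13.9 FPKM (MASC.1 and MASC.2), 6.94 and 7.61 (MASC.3 and MASC.4), 14.7 (ESC.1) and 4.90 (ESC.2). Within strains the MASC to SSC difference of Slc1a5 was 2.89 in Oct4-GFP lines, from 2 lines of each cell type, and 1.53 in 129mix lines, from 2 MASC lines and 1 SSC line, with no test. Levels were not tested between strains within a cell type. The test made was whether the MASC to SSC difference itself differed between Oct4-GFP and 129mix lines, with SSC.4 as the only 129mix SSC line. It did not pass for any of the 24 members, where the lowest adjusted p of the limma interaction was 0.383.

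Of the 5 glutamate and aspartate carriers, Slc1a3 alone was higher in MASC lines and Slc1a6 alone was lower, and the other 3 stayed under 1 FPKM. Slc1a3 (chr15:8584124-8660807), the glial glutamate carrier GLAST, stood at 0.110, 0.0682, 0.110 and 0.296 FPKM in SSC lines, 2.78 to 4.93 (median 4.20) in MASC lines, 2.75 and 2.57 in ESC lines and 2.06 and 2.29 in iPS lines. The difference between MASC and SSC lines was 2.16 ± 0.12 (SE, adjusted p = 1.98e-06), at SSC levels that rest on few reads. Slc1a6, known as the EAAT4 carrier of Purkinje cells, stood at 1.69, 0.815, 2.68 and 1.38 FPKM in SSC lines, 0.143 to 0.468 (median 0.278) in MASC lines and 10.4 in the MEF sample. Its difference was -0.99 ± 0.19 (SE, adjusted p = 0.00278), and it was -0.72 (adjusted p = 0.0172) without the libraries highest in fibroblast genes.

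Within System A, the sodium-driven uptake of alanine, glutamine and other small neutral amino acids, 2 of the 3 genes were higher in MASC lines, where 11.4% of all transcripts were. Slc38a1 (chr15:96401849-96472774) stood at 0.517, 5.33, 0.398 and 2.32 FPKM in SSC lines, 12.99 to 18.9 (median 16.3) in MASC lines and 17.9 and 12.6 in ESC lines, a difference of 2.69 ± 0.39 (SE, adjusted p = 0.0006). The SSC lines were spread, with SSC.1 and SSC.3 under 0.6 and SSC.2 at 5.33, and all lay below the MASC lines. Slc38a2 (chr15:96517823-96530129), the form that cells raise when amino acids run short, stood at 38.1, 34.03, 51.4 and 86.5 FPKM in SSC lines and 73.2 to 129.6 (median 114) in MASC lines, a difference of 1.07 ± 0.27 (SE, adjusted p = 0.013). SSC.4 overlapped the MASC lines, and the difference was 1.03 with an adjusted p of 0.118 without the libraries highest in fibroblast genes.

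Other Slc38a1 transcripts did not pass. NM_001166458 stood at 7.57, 7.76, 3.46 and 9.03 FPKM in SSC lines and 6.53 to 11.1 in MASC lines, a difference of 0.29 ± 0.23 (SE, adjusted p = 0.392), and went from 44.4 to 73.6% of Slc38a1 FPKM in SSC lines to 22.04 to 34.5% in MASC lines. Another transcript, NM_134086, differed by 0.60 ± 0.27 (SE, adjusted p = 0.124).

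Slc38a4, the placental System A form that also carries cationic amino acids, was spread widely among the SSC lines. It stood at 23.5, 55.6, 10.7 and 89.5 FPKM in SSC lines, 40.02 to 49.8 (median 42.9) in MASC lines, 61.2 and 35.2 in ESC lines and 80.9 and 140.2 in iPS lines. The MASC lines fell inside the SSC range and the difference was 0.37 ± 0.49 (SE, adjusted p = 0.654). Its sign was not stable: the value was -0.15 without SSC.3, -1.11 within 129mix lines, and -0.70 (adjusted p = 0.0425) without the libraries highest in fibroblast genes.

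The remaining SLC38 genes lie outside System A. Slc38a9 (chr13:113450974-113528960), the lysosomal arginine sensor that acts on mTORC1, stood at 3.44, 4.34, 2.18 and 6.07 FPKM in SSC lines, 0.613 to 1.04 (median 0.845) in MASC lines, 0.537 and 1.09 in ESC lines and 0.998 and 0.968 in iPS lines, without overlap between SSC and pluripotent lines. The difference between MASC and SSC lines was -1.40 ± 0.20 (SE, adjusted p = 0.000529). Slc38a3, a System N carrier of glutamine known from liver and brain, stood at 3.98, 3.28, 1.66 and 2.75 FPKM in SSC lines and 0.373 to 1.05 (median 0.563) in MASC lines, a difference of -1.26 ± 0.18 (SE, adjusted p = 0.00047).

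Slc38a7, a lysosomal glutamine and asparagine carrier, stood at 9.55, 2.45, 11.9 and 0.987 FPKM in SSC lines and 10.8 to 13.6 (median 11.1) in MASC lines, a difference of 1.18 ± 0.48 (SE, adjusted p = 0.0927) that did not pass. It passed with a strain block (1.72, adjusted p = 0.0344), under median centring (1.37, adjusted p = 0.0307), with the filter on low values (1.18, adjusted p = 0.0412) and without SSC.3 (1.58, adjusted p = 0.0245). SSC.1 and SSC.3, which held 476 and 1055 FPKM of fibroblast genes, were at 9.55 and 11.9, and SSC.2 and SSC.4, which held 35.5 and 110.2, were at 2.45 and 0.987, while the MEF sample held 14.2. Without the libraries highest in fibroblast genes the difference was 2.21 (adjusted p = 0.0014), from 2 SSC lines. The part of feeder cells in these values was not tested beyond that. Slc38a10, an SLC38 member of less certain substrates, stood at 12.2, 8.51, 15.7 and 13.2 FPKM in SSC lines and 10.7 to 23.6 (median 12.7) in MASC lines, a difference of 0.16 ± 0.25 (SE, adjusted p = 0.721).

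SLC36 and SLC43 genes were lower in MASC lines wherever they passed. Slc36a4 (chr9:15514213-15543233), a high-affinity carrier of proline and tryptophan, stood at 5.57, 8.76, 6.84 and 9.14 FPKM in SSC lines, 0.753 to 1.38 (median 0.912) in MASC lines, 0.717 and 0.649 in ESC lines and 0.196 and 0.583 in iPS lines, a difference of -2.13 ± 0.13 (SE, adjusted p = 3.08e-06). Slc36a1, the lysosomal proton-coupled carrier PAT1, stood at 4.37, 3.76, 4.10 and 3.33 FPKM in SSC lines and 2.84 to 3.68 (median 3.04) in MASC lines, a difference of -0.25 ± 0.07 (SE, adjusted p = 0.0234). Its call was lost without SSC.1 (-0.20) or SSC.3 (-0.22) and under 3 scalings of the samples. The filter on low values (adjusted p = 0.121), a strain block (adjusted p = 0.139) or a replicate block (adjusted p = 0.0998) also ended it. So did leaving out the libraries highest in fibroblast genes (-0.18, adjusted p = 0.0657). Slc43a3 (chr2:84776803-84798666), a member of the LAT3 family described as a purine nucleobase carrier rather than an amino acid carrier, stood at 13.8, 21.2, 13.7 and 22.6 FPKM in SSC lines, 1.12 to 3.84 (median 2.25) in MASC lines and 2.10 and 0.824 in ESC lines. Its difference was -2.50 ± 0.28 (SE, adjusted p = 0.000113), and every SSC line stood above every MASC line. The leucine carriers Slc43a1 and Slc43a2 did not pass in the transcripts followed here (differences of -0.06 and 0.07). Another Slc43a1 transcript, NM_001083809, was lower, at 1.22 to 2.96 FPKM in SSC lines and 0.153 to 0.535 in MASC lines. Its difference was -0.98 ± 0.18 (SE, adjusted p = 0.00233), while NM_024497 did not pass (-0.51, adjusted p = 0.493).

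Slc7a4, an SLC7 member for which transport has been hard to show, stood at 3.19, 3.48, 1.82 and 1.73 FPKM in SSC lines and 0.400 to 0.951 (median 0.552) in MASC lines, a difference of -1.10 ± 0.16 (SE, adjusted p = 0.000681). Of the 18 members not given sample by sample, 13 stayed under 1 FPKM in all samples, with maxima from 0 to 0.911, and among these Slc36a3 passed as lower in MASC lines with no value above 0.35 FPKM. The other 5 were Slc7a14, which ranged up to 15.4 FPKM in a MASC line, Slc38a5 (up to 1.69), Slc38a6 (up to 4.20), Slc43a1 (up to 9.99) and Slc43a2 (up to 4.24). None of these 5 passed between MASC and SSC lines in the transcript followed here.

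**Figure D4:**
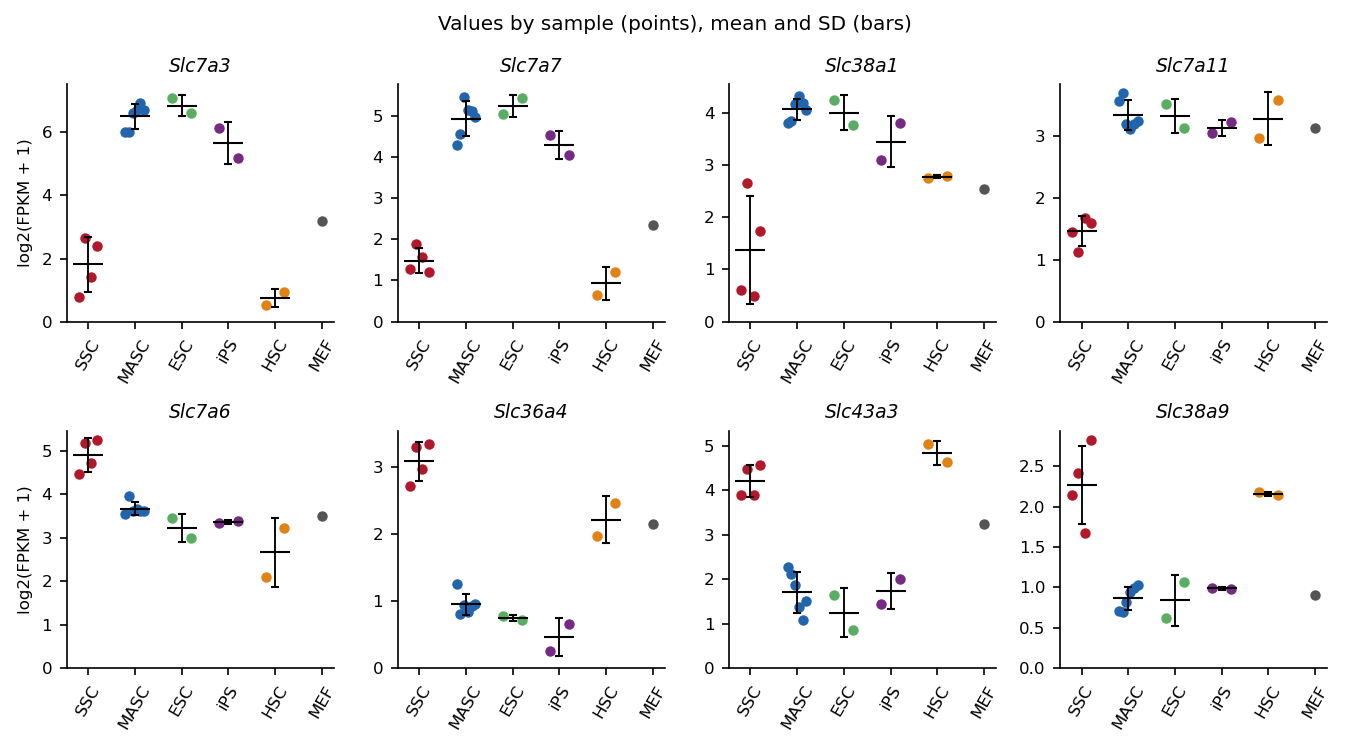
log2(FPKM + 1) of 8 members in each sample (points), by cell type, with the mean and SD where a cell type has more than 1 sample (bars). In the upper row the SSC points lie below all MASC, ESC and iPS points, and in the lower row they lie above them.

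Between ESC and SSC lines 6 members were higher in ESC lines (14.3%, background 7.67%) and 9 were lower (21.4%, background 13.8%). By the adapted rule 4 were higher (1.97% of all transcripts were) and 2 lower (2.54%). The comparison uses the same 4 SSC lines as the one with MASC lines, so the 2 are not independent. The differences of Slc7a3, Slc7a7, Slc38a1, Slc7a11 and Slc1a3 were 5.03, 3.75, 2.63, 1.86 and 1.68, all past the threshold, as was Slc38a8 with a highest value of 0.180 FPKM. The difference of Slc38a1 was 2.40 without ESC.1 and 1.57 without the libraries highest in fibroblast genes, with ESC.2 as the only ESC line in both. Slc43a3 differed by -2.95 ± 0.37 (SE, adjusted p = 0.00047), Slc36a4 by -2.33 ± 0.17 (SE, adjusted p = 2.53e-05) and Slc7a6 by -1.67 ± 0.23 (SE, adjusted p = 0.000734). Among the 9 lower, the call of Slc7a5 was lost without SSC.2, SSC.3 or SSC.4. Median centring, median scaling, a strain block and a replicate block ended it too (limma adjusted p from 0.0583 to 0.189). That of Slc1a6 was lost without SSC.1, under quantile normalization, median centring and median scaling, and with either block (limma adjusted p from 0.0506 to 0.147). With 2 ESC lines, Slc1a5 did not pass at 2.30 ± 0.75 (SE, adjusted p = 0.0551), nor did Slc38a2 at 1.07 ± 0.36 (SE, adjusted p = 0.0642) or Slc1a4 at 1.15 ± 0.42 (SE, adjusted p = 0.0856).

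No member passed between MASC and ESC lines or between iPS and ESC lines with limma. At an unadjusted p under 0.05, Slc1a3 alone was higher in MASC than in ESC lines (1.27% of all transcripts were) and no member was lower (1.65% were). After adjustment 0.00306% of all transcripts were higher and 0.0276% lower. The largest differences of MASC from ESC lines among the 24 members were 0.48 for Slc1a3, 0.45 for Slc43a3, -0.45 for Slc1a5 and 0.44 for Slc7a6. Between iPS and ESC lines, where 0.196% of transcripts were higher and 0.113% lower after adjustment, Slc38a3 was higher (4.14% of transcripts were) and Slc3a2, Slc7a5, Slc7a7, Slc36a1 and Slc38a2 were lower (3.89% were) at an unadjusted p under 0.05. Slc7a5 stood at 57.9 and 54.4 FPKM in iPS lines and 137 and 86.2 in ESC lines, a difference of -0.94 ± 0.25 (SE, adjusted p = 0.196). Slc38a2 stood at 55.8 and 43.3 FPKM in iPS lines and 107 and 101 in ESC lines, a difference of -1.06 ± 0.43 (SE, adjusted p = 0.535). Neither passed after adjustment, with 2 lines in each group.

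HSC cultures were set against the mean of the MASC, ESC and iPS lines. Medium and feeder of the HSC cultures differed from those of the pluripotent lines and cannot be told apart from cell type. Both cultures were C57Bl/6J and none of the 10 pluripotent lines was. Strain and cell type therefore cannot be told apart here except through SSC.3, the 1 other C57Bl/6J sample, which a strain block uses. There 11 members were higher (26.2%, background 15.9%) and 7 lower (16.7%, background 17.4%), so the share lower was near that of all transcripts. With a difference of at least 1, 8 were higher (10.3%) and 4 lower (11.2%), and by the adapted rule 4 were higher (4.63% of all transcripts were) and 3 lower (3.96%). In 9 members both cultures stood above all 10 pluripotent lines (15.6% of all transcripts did) and in 11 below (20.3%). The mast cell genes given above summed to 63050 FPKM in HSC.1 and 38440 FPKM in HSC.2. They set the cultures apart from the pluripotent lines as these members did, and their part was not tested.

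Slc7a8 made the largest difference among the genes that were higher. It stood at 31.2 and 50.2 FPKM in the HSC cultures and at 0.336 to 0.835 (median 0.649) in the 10 pluripotent lines, a difference of 4.69 ± 0.16 (SE, adjusted p = 5.89e-10). Slc7a5 stood at 139 and 221 FPKM in the cultures and 54.4 to 137 (median 91.5) in the pluripotent lines, a difference of 1.04 ± 0.20 (SE, adjusted p = 0.00142). Slc3a2 stood at 152 and 187 FPKM and 75.1 to 171 (median 96.9), a difference of 0.73 ± 0.22 (SE, adjusted p = 0.0211), and its call was lost without HSC.2 (0.58, adjusted p = 0.205). With a strain block the calls of Slc7a5 (0.95, adjusted p = 0.114) and Slc3a2 (0.51, adjusted p = 0.42) were lost. Slc7a7 was lower, with 0.560 and 1.32 FPKM in the cultures and 15.4 to 43.04 (median 31.2) in the pluripotent lines, a difference of -3.88 ± 0.29 (SE, adjusted p = 8.63e-07).

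Slc43a3 stood at 31.6 and 23.9 FPKM in the HSC cultures and 0.824 to 3.84 (median 1.98) in the pluripotent lines, a difference of 3.27 ± 0.33 (SE, adjusted p = 1.11e-05). Slc7a4 stood at 11.9 and 9.03 FPKM in the HSC cultures and 0.326 to 0.951 (median 0.552) in the pluripotent lines, a difference of 2.90 ± 0.19 (SE, adjusted p = 3.25e-07). Slc38a10 stood at 86.3 and 55.04 FPKM in the HSC cultures and 10.4 to 23.6 (median 12.9) in the pluripotent lines, a difference of 2.25 ± 0.30 (SE, adjusted p = 0.000108). Slc36a1 stood at 12.4 and 12.3 FPKM in the cultures and 1.92 to 3.68 (median 2.98) in the pluripotent lines, a difference of 1.87 ± 0.08 (SE, adjusted p = 4.3e-09). Slc38a9 stood at 3.52 and 3.40 FPKM in the cultures and 0.537 to 1.09 (median 0.943) in the pluripotent lines, a difference of 1.26 ± 0.22 (SE, adjusted p = 0.000872). Slc36a4 stood at 2.91 and 4.48 FPKM and 0.196 to 1.38 (median 0.766), a difference of 1.49 ± 0.18 (SE, adjusted p = 4.67e-05). With a strain block the difference of Slc38a10 was 1.64 and the call was lost (adjusted p = 0.0577). None of these 6 genes overlapped between the cultures and the pluripotent lines. Slc36a2 and Slc38a11 also passed, at under 1 FPKM.

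On the lower side, Slc38a4 stood at 0.0492 and 0.0516 FPKM in the HSC cultures and 35.2 to 140.2 (median 45.9) in the pluripotent lines, a difference of -5.87 ± 0.56 (SE, adjusted p = 7.68e-06), and Slc7a3 at 0.451 and 0.923 and 35.5 to 134 (median 97.1), a difference of -5.60 ± 0.44 (SE, adjusted p = 1.51e-06). Both were near the bottom of the scale in the cultures and among the most abundant members in the pluripotent lines. Slc1a3 was lower, with a difference of -1.93 ± 0.14 (SE, adjusted p = 5.44e-07), and Slc38a3 and Slc38a8 were lower as well, the latter with a highest value of 0.180 FPKM. The call of Slc38a3 was lost with a strain block (-0.29, adjusted p = 0.445). Slc7a6 stood at 3.28 and 8.33 FPKM in the cultures and 6.97 to 14.5 (median 10.9) in the pluripotent lines, a difference of -0.76 ± 0.26 (SE, adjusted p = 0.0457). Its call was lost with a strain block (-0.52, adjusted p = 0.606), without HSC.1 (-0.19, adjusted p = 0.722) and, with values from -0.77 to -0.68, without SSC.3, ESC.1 or any 1 MASC or iPS line.

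**Figure D5:**
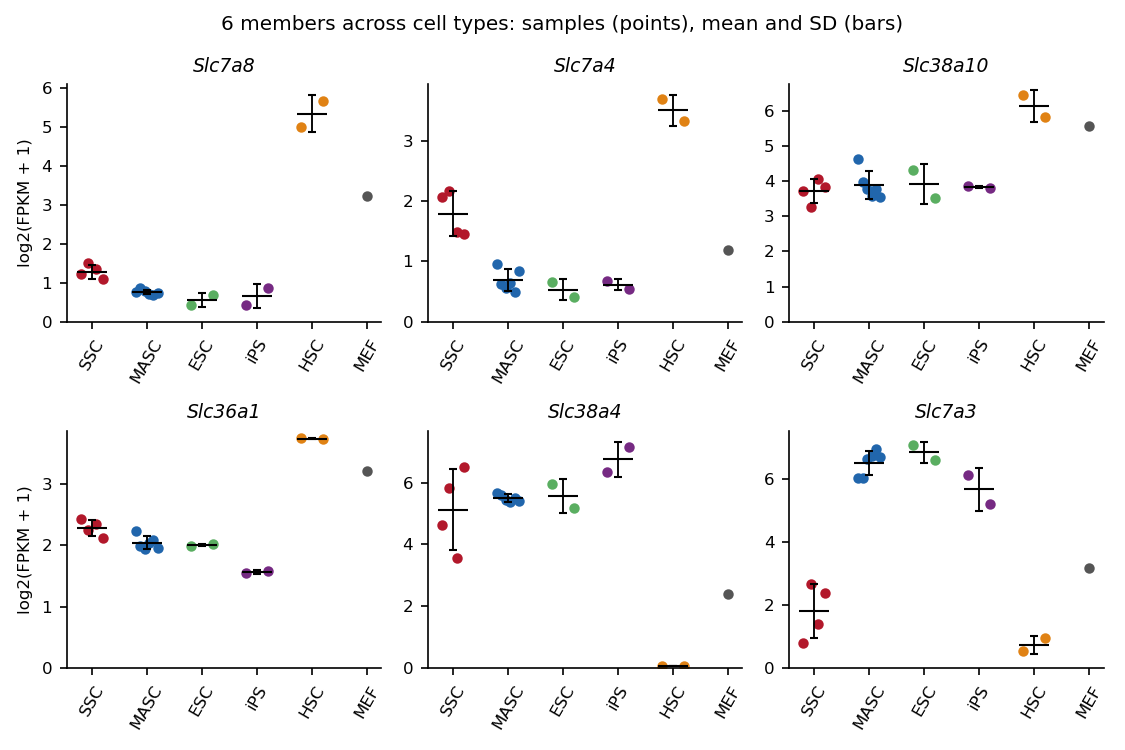
log2(FPKM + 1) of 6 members in each sample (points), by cell type, with the mean and SD (bars) where a cell type has more than 1 sample. The 2 HSC points lie above all others for Slc7a8, Slc7a4, Slc38a10 and Slc36a1, and lie below all others for Slc38a4.

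The MEF sample, a single library with no replicate check, was set beside the iPS lines that were made from fibroblasts of its kind. Slc1a6 (difference 3.04) and Slc7a8 (2.57) were higher by more than 2 on the log2 scale in the MEF sample (5.45% of all transcripts were), and Slc7a3 (-2.48) and Slc38a4 (-4.33) were lower by more than 2 (5.15% of all transcripts were). Slc38a4 stood at 4.33 FPKM in the MEF sample and 80.9 and 140.2 in the iPS lines.

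Other genes of amino acid handling were read in 4 lists. In the list of ATF4 and its targets outside these families, MASC lines held higher levels of 14 of 28 genes with limma and a lower level of 0, beside 11.4% and 19.5% of all transcripts, and the median difference was 1.00. At an unadjusted p under 0.05 the counts were 17 and 2, and 1 gene was called lower without SSC.3 and 2 without MASC.2. The list shares its theme with the motif searched above and was chosen with results of these data known. At the head of it was Cth, which makes cysteine from cystathionine, with 1.46 to 2.83 FPKM in SSC lines and 34.8 to 68.9 in MASC lines, a difference of 4.01 ± 0.20 (SE, adjusted p = 1.03e-06). Chac1, which degrades glutathione, differed by 2.74 ± 0.33, Nupr1 by 2.69 ± 0.71 and the translation repressor Eif4ebp1 by 2.29 ± 0.25 (SE). Atf4 itself went from 64.1 to 88.0 FPKM in SSC lines to 185 to 229.8 in MASC lines, a difference of 1.44 ± 0.11 (SE, adjusted p = 9.54e-06). In HSC cultures 1 gene of this list was higher and 13 were lower than in the pluripotent lines, where 15.9% of all transcripts were higher and 17.4% lower.

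Of 20 enzymes of glutamine, glutamate and glutathione metabolism, 7 were higher and 3 lower in MASC lines (11.4% and 19.5% of all transcripts were), and the median difference was 0.42. Odc1, the first enzyme of polyamine synthesis from ornithine, stood at 29.1 to 53.0 FPKM in SSC lines and 427 to 509 in MASC lines, a difference of 3.44 ± 0.14 (SE). Got1 (2.17 ± 0.20) and Glud1 (1.98 ± 0.15), which interconvert glutamate and 2-oxoglutarate, were higher, and the glutamyltransferase homologue Ggt7 was lower (-2.37 ± 0.32).

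Of 31 genes that sense amino acids for mTORC1 and GCN2, 5 were higher and 10 lower in MASC lines, with a median of -0.21. Over all transcripts 11.4% were higher and 19.5% lower, and among those with a mean of at least 1 FPKM 18.5% and 26.5%. Impact, an inhibitor of GCN2 activation, was higher by 2.88 ± 0.28 (SE), and the leucine sensor Sesn2, which is also in the ATF4 list, by 1.62 ± 0.21. Rragd, one of the Rag GTPases that bring mTORC1 to lysosomes, was lower (-2.59 ± 0.33), as was Sesn3 (-1.62 ± 0.15). Among 29 amino acid carriers of other families, 5 were higher and 8 lower, with a median of -0.01. These counts are near the shares among transcripts with a mean of at least 1 FPKM, but neither list was filtered on expression. Of the 42 members of the families followed here, 19.0% were higher and 28.6% lower. The glycine carrier Slc6a9 (-2.24 ± 0.32) and the vesicular glutamate carrier Slc17a7 (-2.17 ± 0.20) were lower in MASC lines, and the mitochondrial aspartate-glutamate carrier Slc25a13 (2.10 ± 0.28) and the neutral amino acid carrier Slc6a15 (1.71 ± 0.31) were higher.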

How the data were processed

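RNA-seq of 17 mouse samples was analysed. Reads had been aligned to mm9 with TopHat2 2.0.11 and assigned to RefSeq transcripts with Cufflinks (its version is not given in the sources used here), and the authors deposited FPKM per transcript after removing duplicate and multiply mapped reads and normalizing for the upper quartile and for GC content. The coverage column, also deposited by the authors, gives reads per base of each transcript and was used only as a measure of depth, as no counts were used here. Its median at 1 FPKM was between 1.26 and 3.23 reads per base, and 13532 to 16272 transcripts reached 1 FPKM.

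Of the rows, 32661 with 1 row per accession were kept. log2(FPKM + 1) was fitted with limma 3.58.1 (R 4.3.3; lmFit, then eBayes without trend), over the 12 SSC, MASC and ESC lines for comparisons among these and over all 17 samples for iPS lines and HSC cultures, with groups taken from the labels. p-values were adjusted over all transcripts by the Benjamini-Hochberg method at 0.05. The code was tested on simulated data. The MEF sample, without replicate, was given no test.

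Values were given by sample for the 24 members with a mean of at least 10 FPKM in 1 cell type, or past the threshold with a difference of at least 1. In each other list the 4 genes with the largest difference past the threshold between MASC and SSC lines were named, and Atf4, Sesn2 (by its place in a second list) and the marker genes were named besides. Members and lists were chosen with earlier results of these data known. Promoter windows came from RefSeq GRCm38.p6, where 31 members matched; Slc1a5, Slc7a2, Slc7a3, Slc7a4, Slc7a5, Slc7a12, Slc7a13, Slc36a2, Slc38a1, Slc38a3 and Slc43a3 did not. Alternatives were another pseudocount, a filter on low values, 3 other scalings, other variance and block settings, summed transcripts, single strains and leaving out libraries.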

Additional observations from a re-analysis of the deposited data

Results flagged for a closer look

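In the 6 MASC lines, 1 line stood apart from the others in 5 members by Dixon's criterion, of 48 groups examined, where chance gives about 1 in 20. MASC.1 held 3.83 FPKM of Slc7a2 (0.564 to 0.812 in the others), 1.38 FPKM of Slc36a4 (0.753 to 0.932) and 13.6 FPKM of Slc38a7 (10.8 to 11.7). It was also the MASC line with the highest sum of fibroblast genes, at 1252 FPKM, and the part of this was not tested. MASC.2 held 14.5 FPKM of Slc7a6 (10.6 to 11.7 in the others), and MASC.6 held 1.05 FPKM of Slc38a3 (0.373 to 0.593).

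Slc38a10 differed between MASC and SSC lines in opposite directions by strain, higher in Oct4-GFP lines (0.81) and slightly lower in 129mix lines (-0.15). The 129mix value rests on SSC.4 as the only SSC line. The 2 differences lay 0.96 apart on the log2 scale, and the test of that difference did not pass (limma interaction, adjusted p = 0.663).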

How the results depend on the processing

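Of the tested values for single members under the alternatives, 1231 kept their direction and their side of the threshold, 64 lost the call, 7 gained one and 6 changed sign. Of the single-strain values, which have no test, 26 moved by less than 1 SD, 20 by more and 2 changed sign. Median centring, which also shifts values listed at 0, gave 16 members higher in MASC (43.6% of all transcripts were) and 15 higher in ESC (38.2%) than in SSC lines, and 6 of those 16 never reached 1 FPKM. With a difference of at least 1, 7 members were lower in MASC lines and 4 lower in HSC cultures. By an unadjusted p under 0.05 with a difference of at least 2, 4 were higher and 2 lower in MASC lines, 2 lower in ESC lines, and 4 higher and 3 lower in HSC cultures. A strain block left 7 higher in HSC cultures, and a pseudocount of 0.1 gave 6 higher and 4 lower past the difference of 2 in the MEF sample. For these counts the cause was not tested. For the strain block, the pseudocount, the libraries left out and the replicate block, the share of all transcripts called is not given. Those counts, here and below, are therefore no result about the members.

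Leaving out 1 library at a time gave 7 to 9 members higher and 9 to 13 lower in MASC than in SSC lines. In the MEF sample, where no test was made, it gave 2 higher and 2 to 3 lower. For ESC, iPS and HSC samples it left 1 in a group, so no counts are given for these.

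Signs changed for Slc36a1 under quantile normalization (0.0481), for Slc38a4 with a strain block (-0.147), without the libraries highest in fibroblast genes (-0.704) and within 129mix lines (-1.11), and for Slc38a10 with summed transcripts (-0.0045) and within 129mix lines (-0.152). Leaving out 1 library moved Slc7a1 between -0.437 and 0.058 and Slc38a4 between -0.154 and 0.829.

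Median scaling and the removal of the libraries highest in fibroblast genes were chosen after seeing the data. The removal left SSC.2 and SSC.4 as SSC lines and gave 8 members higher and 12 lower in MASC lines, 17 of them among the 20 first called. It left ESC.2 and HSC.1 alone in their groups, so no counts are given for these.

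SSC and MASC lines share replicate numbers in their titles, but the numbers did not pair them: residuals of same-numbered lines correlated between -0.225 and 0.185 (mean -0.031, 4 pairs). With the replicate block, 6 members were higher and 8 lower in MASC lines, 14 of them among the 20 first called, 5 and 7 in ESC lines and 9 and 6 in HSC cultures. Depth limits members under 1 FPKM.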
